A study of Mus musculus with 6 samples.

Results

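Tight junction genes were examined in endothelial cells (ECs) sorted from MC38 tumors of WT and Apelin-KO mice. The 9 genes, Cldn5, Ocln, Tjp1, Esam, F11r, Jam2, Jam3, Marveld2 and Cgn, were chosen by name and found among the 24346 gene symbols of the series. MC38 is a colon carcinoma line from C57BL/6 mice, and it was grown under the skin. Both groups were C57BL/6 mice that were 8 to 10 weeks old at inoculation, with tumors taken at day 19, and the sample labels name saline for both. The WT group (n = 3) carried normal Apln, and the Apelin-KO group (n = 3) was deficient in it, with no restriction of the knockout to ECs named in the sources used here. CD31-positive, CD45-negative cells were sorted, and their mRNA was sequenced. Whether a sample came from 1 mouse or from several is not given in the sources used here, so that p-values measure the spread between these samples.

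Tight junctions seal the cleft between neighbouring ECs and set how easily small molecules and cells cross a vessel wall. Claudins and occludin form the strands in the membrane, junctional adhesion molecules (JAMs) and ESAM hold neighbouring cells together and guide leukocytes across, and scaffold proteins such as ZO-1 tie the strands to the actin cytoskeleton. Claudin-5 is the claudin by which ECs are best known, and tumor vessels are known for leaky junctions. The question put to these samples was whether tumor ECs of mice that lack Apelin carry other levels of these transcripts.

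None of the 7 tight junction genes that could be tested differed between the genotypes at an adjusted p-value under 0.05, and none at an unadjusted p-value under 0.05. The set was expressed in a steep order that was shared by both genotypes, from Esam at a mean of 1023 FPKM (fragments scaled to transcript length and mapped reads) through F11r, Cldn5, Tjp1, Jam2 and Jam3 to Marveld2 at 1.26 FPKM. Ocln and Cgn were at or near 0 in all 6 samples. By group means, 5 of the 7 genes were higher in Apelin-KO ECs (Jam2, Cldn5, Tjp1, Esam and F11r) and 2 were lower (Jam3 and Marveld2). Among all 10964 genes tested, 52.5% were higher in Apelin-KO ECs.

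**Figure D1:**
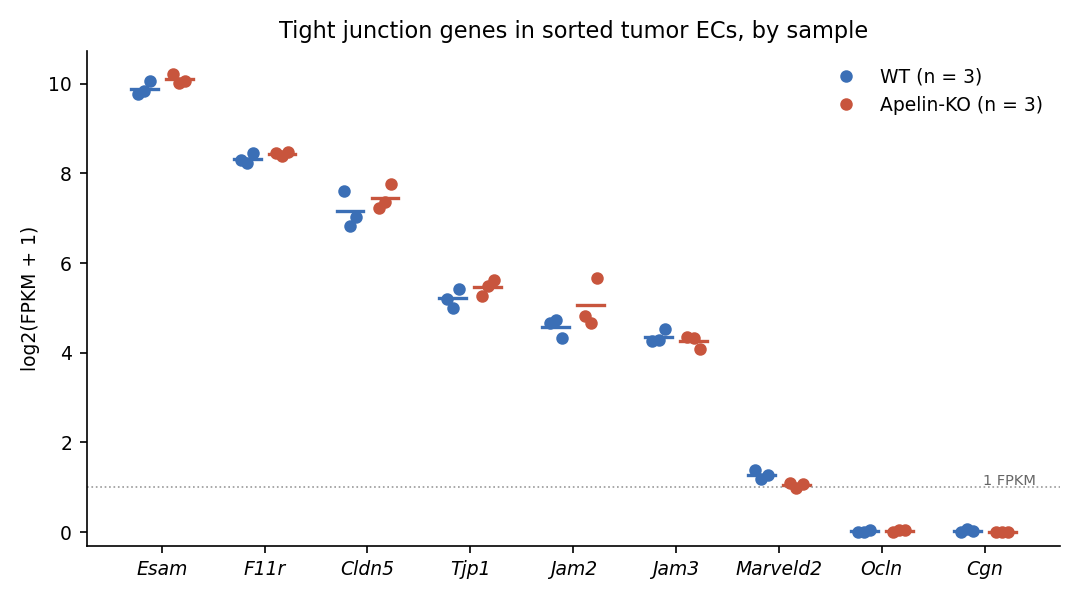
Expression of the 9 tight junction genes in each sample, as log2(FPKM + 1), ordered by mean level. Points are samples (WT in blue, Apelin-KO in red, n = 3 each), short bars are group means and the dotted line stands at 1 FPKM. Esam lies highest, Ocln and Cgn lie at the bottom, and among the 7 genes with a mean above the line only the groups of Marveld2 do not overlap.

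The upstream sequences of 2 members at the top and 2 at the bottom of this order are shown so that the genes behind the contrast can be seen. They are the 250 bases before the RefSeq start on GRCm38.p6, the build that mm10 stands for, read 5′ to 3′ on the strand of the gene. RefSeq windows were matched for 6 of the 9 genes, and Esam, Jam2 and Jam3 were not matched. Capitals mark the core of ETS factor sites, GGAA or its reverse complement TTCC, since ERG, an ETS factor of ECs, is reported upstream of Cldn5.
Cldn5, chr16:18776597-18776846, plus strand: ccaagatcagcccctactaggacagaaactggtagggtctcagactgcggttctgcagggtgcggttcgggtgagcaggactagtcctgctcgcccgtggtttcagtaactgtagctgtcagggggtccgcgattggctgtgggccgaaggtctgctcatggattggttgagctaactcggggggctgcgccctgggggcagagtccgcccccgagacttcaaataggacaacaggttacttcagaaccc
F11r, chr1:171437311-171437560, plus strand: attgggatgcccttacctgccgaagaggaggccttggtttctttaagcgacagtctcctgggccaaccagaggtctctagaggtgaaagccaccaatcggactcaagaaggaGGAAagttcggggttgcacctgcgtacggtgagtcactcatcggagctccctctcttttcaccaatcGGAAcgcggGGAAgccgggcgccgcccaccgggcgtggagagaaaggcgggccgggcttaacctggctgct
Ocln, chr13:100552719-100552968, minus strand: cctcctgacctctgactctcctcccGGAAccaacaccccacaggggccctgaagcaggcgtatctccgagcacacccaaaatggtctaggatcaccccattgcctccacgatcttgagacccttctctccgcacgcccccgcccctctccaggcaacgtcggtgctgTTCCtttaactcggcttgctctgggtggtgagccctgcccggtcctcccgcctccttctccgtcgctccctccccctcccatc
Cgn, chr3:94786483-94786732, minus strand: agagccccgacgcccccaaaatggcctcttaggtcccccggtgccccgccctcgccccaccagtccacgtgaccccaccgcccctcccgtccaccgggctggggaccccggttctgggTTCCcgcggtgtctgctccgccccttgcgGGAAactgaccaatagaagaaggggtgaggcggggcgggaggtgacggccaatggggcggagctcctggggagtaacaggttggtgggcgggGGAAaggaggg
The core was found 0 times in the Cldn5 window, 3 times in that of F11r, 2 times in the Ocln window shown and 3 times in that of Cgn. A second RefSeq start of Ocln, not shown, had 1 match. At least 1 match was found in 93.4% of the 32851 windows of the same length, with a median of 3. The SOX core ACAAT (27.7% of windows) and the FOX core AAACA (46.4% of windows), searched on both strands with overlaps between motifs allowed, were not in any of these 4 windows. These letters therefore did not separate the 2 highly expressed genes from the 2 genes near 0.

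The labelled genotype and cell type were checked on the same files. Apln was 432, 435 and 504 FPKM in WT 1, 2 and 3 and 9.96, 17.5 and 24.3 FPKM in Apelin-KO 1, 2 and 3, and it alone passed an adjusted p-value of 0.05 (0.00747 from limma with Benjamini-Hochberg adjustment), which is 0.00912% of the 10964 genes. Sequencing depth, derived from the spacing of low FPKM values, was put at between 8950000 and 10200000 reads per sample. All 15 endothelial markers (Cdh5, Pecam1 and others) had a mean of at least 1 FPKM, and their sum lay between 6121 and 7449 FPKM in WT ECs and between 7501 and 7949 FPKM in Apelin-KO ECs, without overlap. The 12 hematopoietic markers summed to 239 to 787 FPKM in WT and 112 to 291 FPKM in Apelin-KO ECs, although the gate removed CD45-positive cells, and Ptprc, which encodes CD45, was 3.13, 4.84 and 1.27 FPKM in WT 1, 2 and 3, and 0.043, 1.7 and 0.74 FPKM in Apelin-KO 1, 2 and 3 (unadjusted p = 0.0314, adjusted p = 0.513 from limma). Of 12 epithelial and tumor cell markers only Krt20 reached a mean of 1 FPKM, and the means of Epcam were 0.088 and 0.0523 FPKM in WT and Apelin-KO ECs. Pericyte markers summed to 137 to 179 FPKM in WT and 186 to 213 FPKM in Apelin-KO ECs, and fibroblast markers to 198 to 344 FPKM and 131 to 205 FPKM. Most of the pericyte sum came from Kcnj8 (means of 77.8 FPKM in WT and 93.3 FPKM in Apelin-KO ECs) and Abcc9 (63.7 and 74.6 FPKM). Of the 7 pericyte markers tested, 6 were higher in Apelin-KO ECs by log2 fold change, and Cspg4 was lower. In such bulk samples, fewer ECs and less RNA per EC cannot be told apart, and the part of these shifts in the values below was not tested.

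Cldn5, which encodes the main claudin of ECs, is a gene with 1 exon on the plus strand of chromosome 16 (18776847 to 18778262, GRCm38, as for all positions below). Its expression was 195, 112 and 129.8 FPKM in WT 1, 2 and 3, and 149, 162 and 217 FPKM in Apelin-KO 1, 2 and 3. WT 1 lay above Apelin-KO 1 and 2, so that the groups overlapped, although the lowest values, 112 and 129.8 FPKM, were both from WT mice. The means were 146 ± 43.4 FPKM (SD, n = 3) in WT and 176 ± 36.2 FPKM (SD, n = 3) in the Apelin-KO group. The log2 fold change, given throughout as Apelin-KO minus WT on the log2(FPKM + 1) scale, was 0.29 (standard error 0.23, 95% interval -0.26 to 0.84, adjusted p = 0.719 from limma). Without WT 1 it was 0.52 (unadjusted p = 0.0362 from limma), and without WT 2 or without Apelin-KO 3 it was 0.13. In WT 1, which had the most Cldn5 of the WT samples, the 5 lymphatic endothelial markers also had their highest sum, 264 FPKM against 127 and 159 FPKM in WT 2 and 3, and in Apelin-KO 1, 2 and 3 that sum was 136, 222 and 193 FPKM. The part of lymphatic ECs in the Cldn5 values was not tested.

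The genes whose pattern over the 6 samples was most like that of Cldn5 were taken as those with the smallest root mean square difference from it in centred log2(FPKM + 1). These were Ctnnal1 at 0.085, Klf4 at 0.093, Jund at 0.098, Zfp516 at 0.099 and Tex2 at 0.099, where the median over the 10963 other genes tested was 0.357. A gene with the same value in all samples would lie at 0.322, the root mean square deviation of Cldn5 from its own mean. The 5 genes were picked as the closest of 10963 over 6 samples, so their closeness is no test of shared regulation. Klf4, which encodes a transcription factor, was 7.70, 4.83 and 5.89 FPKM in WT 1, 2 and 3, and 6.25, 7.58 and 9.16 FPKM in Apelin-KO 1, 2 and 3. As for Cldn5, its highest values were in Apelin-KO 3 and WT 1, which follows from how it was picked.

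Cldn5 was the dominant claudin. Of the 22 other claudin genes, 2 reached a mean of 1 FPKM, 10 were listed at 0 in every sample, and the highest value of any of the remaining ones was 0.7 FPKM, for Cldn7. Cldn15, known mostly from the intestine, was 8.94, 8.6 and 10.2 FPKM in WT 1, 2 and 3, and 12.4, 8.31 and 23.7 FPKM in Apelin-KO 1, 2 and 3. Its high mean in Apelin-KO ECs rested on Apelin-KO 3, and the groups overlapped (log2 fold change 0.51, standard error 0.33, adjusted p = 0.646 from limma). Cldn12, a widely expressed claudin, was 10.5, 10.9 and 6.16 FPKM in WT and 3.62, 7.93 and 7.17 FPKM in Apelin-KO 1, 2 and 3 (log2 fold change -0.51, standard error 0.30, adjusted p = 0.621). The epithelial claudins Cldn3 and Cldn4 were listed at 0 in 6 and in 5 of the 6 samples.

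**Figure D2:**
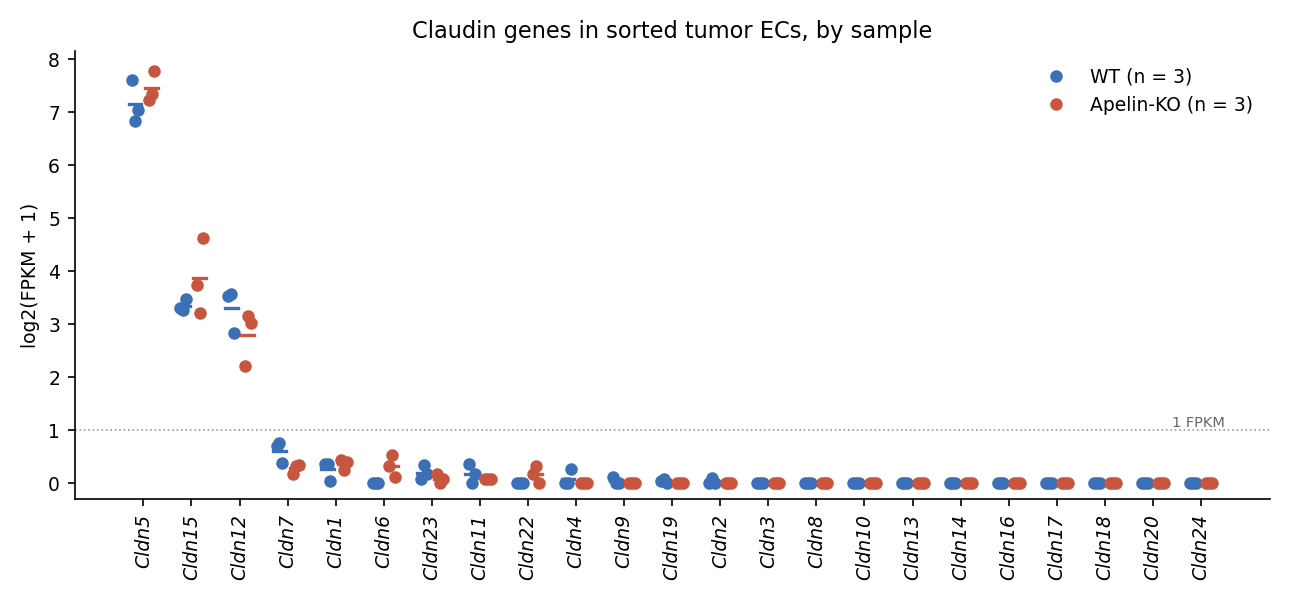
Expression of Cldn5 and the 22 other claudin genes in each sample, as log2(FPKM + 1), ordered by mean level. Points are samples (WT in blue, Apelin-KO in red, n = 3 each), short bars are group means and the dotted line stands at 1 FPKM. Only Cldn5, Cldn15 and Cldn12 lie above the line.

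Occludin, the other strand protein, was not expressed at a level this depth could measure. Ocln, on chromosome 13 from 100496507 to 100552718 on the minus strand, was listed at 0 in WT 1, WT 2 and Apelin-KO 1, at 0.036 FPKM in WT 3, 0.032 FPKM in Apelin-KO 2 and 0.035 FPKM in Apelin-KO 3. On its longest annotated transcript of 4052 bases these values stand for about 1 read each (1.27, 1.26 and 1.27 by estimate). The 2 genotypes cannot be compared at such values, and Ocln was not tested.

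The JAM family made up the most abundant group. Esam, which encodes an adhesion molecule of EC junctions and platelets, lies on chromosome 9 from 37528078 to 37538319 on the plus strand. It was 871, 911 and 1058 FPKM in WT 1, 2 and 3, and 1192, 1038 and 1069 FPKM in Apelin-KO 1, 2 and 3, and it ranked 34 by mean FPKM among all 24346 genes. Of the Apelin-KO samples, only Apelin-KO 2 lay below a WT sample, WT 3. The log2 fold change was 0.22 (standard error 0.12, 95% interval -0.06 to 0.50, adjusted p = 0.599 from limma), and without WT 3 it was 0.30 (unadjusted p = 0.0464 from limma). F11r, which encodes JAM-A, a ligand of the leukocyte integrin LFA-1, lies on chromosome 1 from 171437535 to 171464603 on the plus strand. It was 312, 298 and 352 FPKM in WT and 351, 331 and 355 FPKM in Apelin-KO 1, 2 and 3, and its log2 fold change was 0.11 (standard error 0.10, 95% interval -0.14 to 0.36, adjusted p = 0.765). Without WT 2 it was 0.06, and without WT 3 it was 0.18. It was the steadiest member, with a ratio of 1.19 between its highest and lowest sample. Both proteins are also found on platelets, and of the 8 platelet markers 2 reached a mean of 1 FPKM, with a sum of 8.58 to 10.8 FPKM in WT and 7.11 to 8.92 FPKM in Apelin-KO ECs.

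Jam2 and Jam3 encode JAM-B and JAM-C, which bind each other between ECs and bind the leukocyte integrins VLA-4 and Mac-1. Jam2, on chromosome 16 from 84774123 to 84825928 on the plus strand, was 24.3, 25.5 and 18.98 FPKM in WT 1, 2 and 3, and 27.4, 24.3 and 50.01 FPKM in Apelin-KO 1, 2 and 3. Apelin-KO 3 stood apart from the other 5 samples, which lay between 18.98 and 27.4 FPKM. The log2 fold change was 0.48 (standard error 0.27, 95% interval -0.15 to 1.12, adjusted p = 0.609 from limma), the highest of the set, and without Apelin-KO 3 it was 0.17 (unadjusted p = 0.308). Without Apelin-KO 2 it was 0.68 (unadjusted p = 0.0491). Jam3, on chromosome 9 from 27097384 to 27155421 on the minus strand, was 18.1, 18.5 and 22.1 FPKM in WT and 19.3, 19.2 and 15.9 FPKM in Apelin-KO 1, 2 and 3, and its log2 fold change was -0.11 (standard error 0.13, 95% interval -0.41 to 0.20, adjusted p = 0.817). Without WT 3 or without Apelin-KO 3 it was -0.02. In Apelin-KO 3 the Jam2 level was at its highest and the Jam3 level at its lowest, which gave a ratio of Jam2 to Jam3 of 3.15 there and of 0.857 to 1.42 in the other 5 samples. The ratio did not separate the genotypes (exact permutation test, two-sided, p = 0.4, where 3 against 3 allows no p below 0.1).

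The shares of these 4 genes in their summed FPKM were then compared. Esam made up 72.2 ± 1.02% (SD, n = 3) in WT and 73.4 ± 1.64% (SD, n = 3) in the Apelin-KO group, and F11r made up 24.5 ± 0.876% and 23.1 ± 0.932%. Jam2 ranged from 1.31% to 3.36% over the 6 samples. The Jam3 share was 1.49 ± 0.0294% in WT and 1.21 ± 0.148% in Apelin-KO samples (SD, n = 3 each), while the Jam3 level itself overlapped between the groups and most of the sum was Esam.

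The scaffold genes of the set lay far apart from each other. Tjp1, which encodes ZO-1, lies on chromosome 7 from 65296165 to 65527781 on the minus strand. It was 36.0, 30.9 and 41.9 FPKM in WT 1, 2 and 3, and 37.3, 44.1 and 48.3 FPKM in Apelin-KO 1, 2 and 3. The highest 2 values came from Apelin-KO mice and the lowest 2 from WT mice, and the groups overlapped through WT 3 and Apelin-KO 1. The log2 fold change was 0.25 (standard error 0.15, 95% interval -0.11 to 0.60, adjusted p = 0.635 from limma), and it was 0.14 without WT 2 and 0.17 without Apelin-KO 3. Cgn, which encodes the ZO-1 partner cingulin, lies on chromosome 3 from 94760069 to 94786492 on the minus strand. It was listed at 0 in WT 1 and all 3 Apelin-KO samples and at 0.046 and 0.023 FPKM in WT 2 and 3, about 2 reads and 1 read by estimate, and it was not tested. Its relative Cgnl1 (paracingulin), named here after its values were seen, was 4.59 ± 0.847 FPKM (SD, n = 3) in WT and 5.50 ± 1.10 FPKM (SD, n = 3) in the Apelin-KO group.

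Marveld2 encodes tricellulin, which closes the points where 3 cells meet. It lies on chromosome 13 from 100595957 to 100616971 on the minus strand. It was 1.62, 1.28 and 1.41 FPKM in WT 1, 2 and 3, and 1.15, 0.984 and 1.11 FPKM in Apelin-KO 1, 2 and 3. Every Apelin-KO sample lay below every WT sample, which was so for 1 of the 7 genes. Groups without overlap were found for 14.4% of all genes tested, and with lower values in Apelin-KO ECs for 6.61%. The group means were 1.44 ± 0.172 FPKM (SD, n = 3) and 1.08 ± 0.0872 FPKM (SD, n = 3). The log2 fold change was -0.23 (standard error 0.10, 95% interval -0.46 to 0.01, adjusted p = 0.536 and unadjusted p = 0.0604 from limma), and with a pseudocount of 0.1 in place of 1 it was -0.38 (unadjusted p = 0.0218). With an intensity trend in limma, its standard error was 0.16 and its unadjusted p-value 0.190. These levels rest on an estimated 33.3 to 47.6 reads per sample in WT and 29.2 to 31.2 reads in Apelin-KO ECs, and the part of counting error in the difference was not tested.

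Counted over the set, 0 of the 7 genes tested had an unadjusted p-value under 0.05, against 9.42% of all genes tested. The median log2 fold change was 0.22 for the 7 genes and 0.01 for all genes tested. Regardless of direction, the median size of the log2 fold change was 0.23 for the 7 genes and 0.12 for all genes tested. The order of levels in neighbouring pairs held in 6 of 6 samples for Esam above F11r, F11r above Cldn5, Cldn5 above Tjp1 and Jam3 above Marveld2. Tjp1 above Jam2 and Jam2 above Jam3 held in 5 of 6 samples, and these levels overlapped between the genes.

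**Figure D3:**
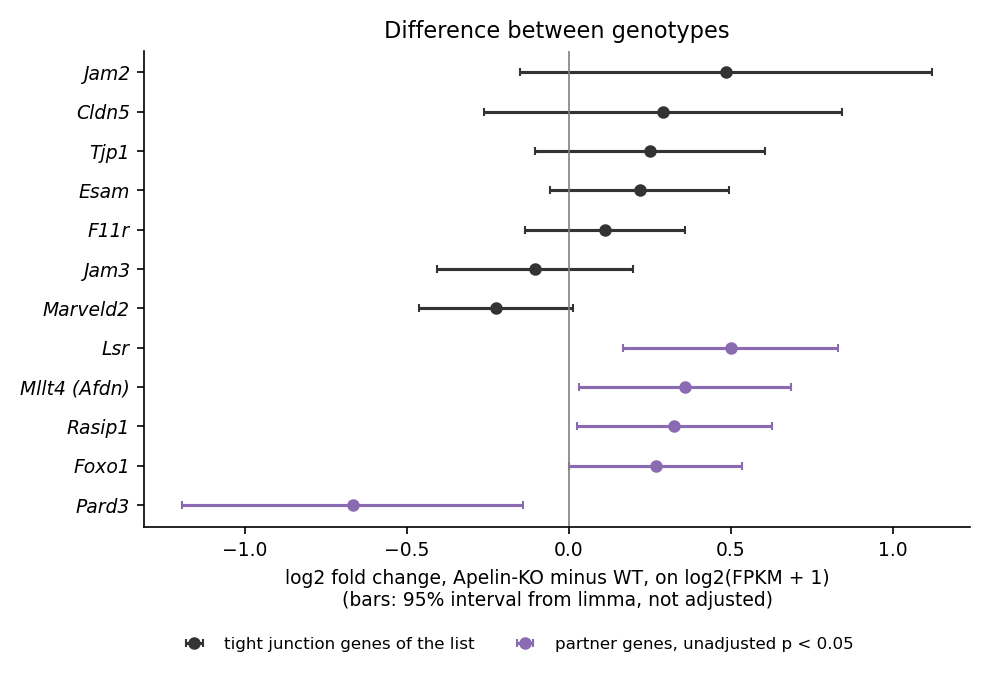
Log2 fold changes (Apelin-KO minus WT, on log2(FPKM + 1)) of the 7 tight junction genes tested, in black, and of the 5 partner genes with an unadjusted p-value under 0.05, in purple. Bars are 95% intervals from limma without adjustment for the number of genes. The intervals of all 7 tight junction genes include 0, and those of the 5 partner genes do not, since these were picked by their p-values.

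Each gene was also read against the endothelial markers of the same sample. By group means 14 of the 15 markers were higher in Apelin-KO ECs and Ecscr was not, 4 had an unadjusted p-value under 0.05 and none an adjusted one (limma). Averaged over the 15 markers, log2(FPKM + 1) lay between 8.26 and 8.55 in the WT samples and between 8.57 and 8.63 in the Apelin-KO samples, without overlap (exact permutation test, two-sided, p = 0.1). Relative to this mean, Esam differed by 0.01, Tjp1 by 0.04 and Cldn5 by 0.08 between the genotypes, and Jam2 by 0.27, all with overlapping groups. F11r was lower in Apelin-KO ECs by this measure (-0.10), as were Jam3 (-0.32) and Marveld2 (-0.44), and for these 3 genes every Apelin-KO sample lay below every WT sample (exact permutation test, two-sided, p = 0.1 for each, the smallest that 3 against 3 allows). On this scale the groups did not overlap for 24.6% of all genes tested, with lower values in Apelin-KO ECs for 23.8% and higher values for 0.766%. The median over the 7 genes was 0.01. With all genes centred in this way, F11r, Jam3 and Marveld2 had unadjusted p-values of 0.388, 0.0470 and 0.00938 and adjusted p-values of 0.576, 0.288 and 0.277 from limma, and the median log2 fold change of all genes tested was -0.20, so that a lower value on this scale was common.

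**Figure D4:**
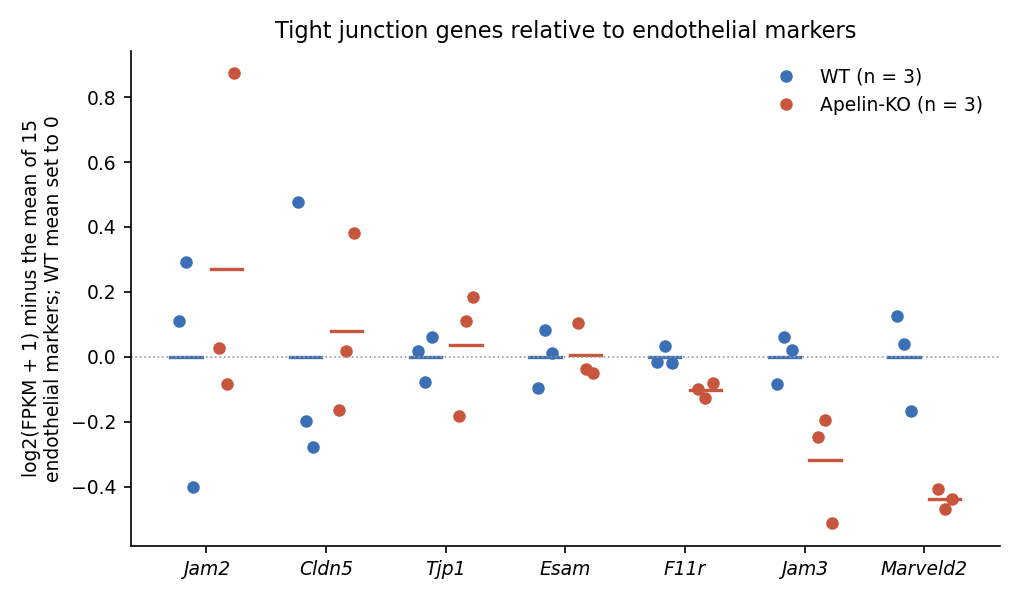
Log2(FPKM + 1) of each tight junction gene minus the mean over 15 endothelial markers in the same sample, with the WT mean of each gene set to 0. Points are samples (WT in blue, Apelin-KO in red, n = 3 each) and short bars are group means. The groups of F11r, Jam3 and Marveld2 do not overlap and lie lower in Apelin-KO ECs, whereas those of Jam2, Cldn5, Tjp1 and Esam overlap.

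The other genes of the tight junction pathway were counted from 7 lists of 66 genes, of which 34 reached a mean of 1 FPKM. None had an adjusted p-value under 0.05. Of the 34 genes, 4 were higher in Apelin-KO ECs at an unadjusted p-value under 0.05 (Lsr, Mllt4, Rasip1 and Foxo1) and 1 was lower (Pard3). Among all genes tested, 4.25% were higher and 5.17% lower at that threshold. In the 6 fits that left out 1 sample each, the unadjusted p-value reached 0.05 or more in none for Lsr, 4 for Mllt4, 4 for Pard3, 5 for Rasip1 and 5 for Foxo1. With all genes centred on endothelial markers, it was 0.166 for Lsr, 0.327 for Mllt4, 0.436 for Rasip1, 0.684 for Foxo1 and 0.0132 for Pard3 (limma). The groups did not overlap for 5 of the 34 genes, the 4 named above and Ccm2, all with higher values in Apelin-KO ECs, against 7.77% of all genes tested in that direction, and the median log2 fold change of the 34 genes was 0.06.

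Among the scaffold and adaptor genes, 10 of 13 were tested and 9 of these had a positive log2 fold change. Ybx3, which encodes the ZO-1-associated factor ZONAB, was the highest of them, at 130.0 ± 7.66 FPKM (SD, n = 3) in WT and 138 ± 17.5 FPKM (SD, n = 3) in the Apelin-KO group. Mllt4, the older symbol of the afadin gene, whose product links junctions to actin, was 10.1, 8.75 and 10.9 FPKM in WT and 11.2, 12.8 and 15.1 FPKM in Apelin-KO 1, 2 and 3, without overlap (log2 fold change 0.36, standard error 0.14, adjusted p = 0.515 from limma).

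The tricellular and MARVEL list held the lowest p-value of the pathway in the fit as reported, that of Lsr. With an intensity trend, the unadjusted p-value was 0.0213 for Rasip1, 0.0260 for Pard3 and 0.0267 for Lsr (limma). Lsr encodes angulin-1, which recruits tricellulin to the points where cells meet, and it was 1.13, 0.923 and 0.553 FPKM in WT 1, 2 and 3, and 1.83, 1.54 and 1.495 FPKM in Apelin-KO 1, 2 and 3. All Apelin-KO samples lay above all WT samples, and its log2 fold change was 0.50 (standard error 0.14, unadjusted p = 0.00908, adjusted p = 0.501 from limma). It was 0.87 with a pseudocount of 0.1 and 0.29 with all genes centred on endothelial markers. Lsr and Marveld2, whose products act together, thus lay in opposite directions, both at about 1 FPKM and neither past the adjusted threshold. Marveld1 was 31.7 ± 2.08 FPKM (SD, n = 3) in WT and 36.5 ± 3.53 FPKM (SD, n = 3) in the Apelin-KO group, and Ildr2 was 2.03 ± 0.731 and 2.01 ± 0.573 FPKM.

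Of the polarity genes, 5 of 9 were tested and 4 of these had a negative log2 fold change. Pard3, which encodes the scaffold of the PAR complex that binds JAMs, was 2.71, 2.73 and 1.21 FPKM in WT and 0.923, 1.26 and 0.755 FPKM in Apelin-KO 1, 2 and 3. The groups overlapped through WT 3 and Apelin-KO 2 (log2 fold change -0.67, standard error 0.22, adjusted p = 0.503 from limma, and log2 fold change -1.04 with a pseudocount of 0.1). Pard6g was 35.3 FPKM in WT 1 and between 8.89 and 15.3 FPKM in the other 5 samples, and Cdc42, the small GTPase of the complex, was 726 ± 52.7 FPKM (SD, n = 3) in WT and 741 ± 19.2 FPKM (SD, n = 3) in the Apelin-KO group.

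Rasip1, which encodes a Rap1 effector of EC junctions and lumens, was 190.1, 192 and 207 FPKM in WT and 274, 209 and 259 FPKM in Apelin-KO 1, 2 and 3 (log2 fold change 0.33, standard error 0.13, adjusted p = 0.516 from limma). The groups did not overlap, and WT 3 and Apelin-KO 2 lay next to each other. Rap1b was 485 ± 7.29 FPKM (SD, n = 3) and 484 ± 15.7 FPKM (SD, n = 3). The JAM-like genes were low, with Clmp at a mean of 1.46 FPKM and Cxadr at 1.08 FPKM, and neither separated the genotypes.

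All 3 transcription factors reported upstream of Cldn5 were expressed. Foxo1, known to repress Cldn5, was 30.0, 27.3 and 30.0 FPKM in WT and 32.7, 33.6 and 39.7 FPKM in Apelin-KO 1, 2 and 3, without overlap (log2 fold change 0.27, standard error 0.11, unadjusted p = 0.0495, adjusted p = 0.525 from limma). Its unadjusted p-value was 0.0545 with a pseudocount of 0.1. Sox18 was 383 ± 59.2 FPKM (SD, n = 3) in WT and 393 ± 39.8 FPKM (SD, n = 3) in the Apelin-KO group, and Erg was 11.8 ± 2.99 and 13.9 ± 0.651 FPKM.

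The leukocyte integrins that bind JAMs were counted as the other side of these contacts. Itgal, Itgam, Itga4 and Itgb2 had means of 0.844, 5.62, 0.246 and 5.53 FPKM in WT ECs and of 0.235, 1.34, 0.145 and 1.78 FPKM in Apelin-KO ECs, whereas Itgb1, which ECs express themselves, was 619 and 662 FPKM. Itgam was 6.28, 9.03 and 1.55 FPKM in WT and 0.38, 2.29 and 1.34 FPKM in Apelin-KO 1, 2 and 3, so that the groups overlapped (unadjusted p = 0.0366, adjusted p = 0.515 from limma). Itgam is also 1 of the 12 hematopoietic markers, and the part of leukocytes in these values was not tested.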

How the data were processed

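RNA-sequencing data of 3 WT and 3 Apelin-KO samples of tumor ECs were analysed. The authors prepared stranded mRNA libraries, sequenced 75-base single-end reads and mapped them to mm10. They deposited FPKM from Cufflinks 2.2.1, with 3 decimals and 1 value per gene symbol. Annotation, strand setting and filters are not given in the sources used here.

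The 10964 of 24346 genes whose FPKM averaged 1 or more were compared on log2(FPKM + 1), which understates the change of low genes, with limma 3.58.1 in R 4.3.3 (two-sided, no trend, no block, Benjamini-Hochberg adjustment over all genes tested). No p-value was adjusted over the list alone. Simulated data were drawn from this comparison (10964 genes), with noise drawn separately for each gene. An adjusted p-value under 0.05 was reached by 75.5% of genes raised by 1 on the log2(FPKM + 1) scale. For genes raised by 2 it was 91.5%. For low genes such steps are larger changes in FPKM itself. No member changed by more than 0.48, so these rates do not describe changes of the size seen in the set. Depth was estimated from low FPKM of 3742 genes with 1 annotated transcript over 700 bases, assuming 200-base fragments, and 68.34% to 72.13% of them were whole reads to within 0.1 (20% by chance). Counting error is a limit for genes near 1 FPKM. Positions are from GENCODE M21 (GRCm38). Python 3.11.15 was used for tables and plots.

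Members and lists were chosen with earlier results of these data known. Named were the members, defining markers, the 2 highest genes of each partner list, partner genes with an unadjusted p-value under 0.05 and the 5 genes most like Cldn5. Some of these are not reported here. Erg, Ccm2, Cgnl1, Cldn3, Cldn4, Cldn7, Krt20, Kcnj8, Abcc9, Cspg4 and the integrins were named after their values were seen. Alternatives changed pseudocount, filter, scaling, variance, block and samples.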

Additional observations from a re-analysis of the deposited data

How the results depend on the processing

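The 7 members tested were refitted under 14 alternatives (13 for Marveld2). Ocln and Cgn entered only the fit without a filter and are not counted here. Of these 97 fits of a member, 96 kept its direction, none passed 0.05 after adjustment (adjusted p from 0.277 to 0.987, limma) and 8 passed it before. F11r reversed, to -0.10, with all genes centred on endothelial markers. That centring moved the median log2 fold change of all genes tested from 0.01 to -0.20 and that of the members from 0.22 to 0.0057. It gave 1888 genes with an unadjusted p-value under 0.05 (49 higher and 1839 lower in Apelin-KO ECs) in place of 1033 (466 and 567), with 2 members, 0 partner genes higher and 3 lower. A pseudocount of 0.1, no filter on mean FPKM and the own variance of each gene each gave 1 member, Marveld2. Partner genes lower in Apelin-KO ECs, 1 as reported, numbered 4 without the filter, 0 with a mean of at least 5 FPKM and 0 with own variances. Genes lower in Apelin-KO ECs numbered 330 with a mean of at least 5 FPKM, where Marveld2 was not tested, and 376 with own variances. An adjusted p-value under 0.05 was reached by 2 genes without the filter, with a mean of at least 5 FPKM and with an intensity trend, and by 0 genes with own variances (limma as reported: 1 gene, and 1033 at an unadjusted p-value under 0.05). The replicate block left 2 partner genes higher in Apelin-KO ECs in place of 4 and changed no call of a member. Same-numbered samples had deviations correlated at -0.139, 0.207 and -0.019, and differently numbered ones at -0.195 to 0.212. With 3 samples per group, these correlations cannot decide whether the numbers mark pairs. Leaving out 1 sample in turn gave 0 to 3 genes with an adjusted p-value under 0.05, 538 to 1233 with an unadjusted one (224 to 547 higher, 314 to 738 lower), 0 to 1 member, 1 to 3 partner genes higher and 0 to 2 lower, and a median of the members from 0.13 to 0.23. The cause of these shifts was not tested. Depth limits Ocln and Cgn, at 0 to 2 estimated reads per sample.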
